A study of Mus musculus with 2 samples.

Results

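Lymphatic endothelial cells line the vessels that drain fluid and immune cells from the heart. Here they were barcodes chosen from Drop-seq data by the genes they express: 103 of the 14744 barcodes kept, 73 in the sham library and 30 in the library made after myocardial infarction (MI). Drop-seq captures single cells in droplets with barcoded beads and counts unique molecular identifiers (UMIs), 1 for each captured RNA molecule. The MI library came from 1 heart, 14 days after the left anterior descending coronary artery had been ligated, and the sham library from 4 pooled hearts of mice operated without ligation. All were male wild-type C57BL6/J mice, 8 to 10 weeks old. Each condition is therefore 1 library, no test between conditions was possible, and all 95% intervals below cover counting error only, not differences between hearts.

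A barcode was taken as lymphatic with at least 4 UMIs of Ccl21a, Mmrn1, Prox1 and Reln together from at least 2 of them. It also needed at least 1 UMI of the endothelial genes Pecam1, Cdh5, Egfl7 and Flt4, at most 2 UMIs of the macrophage genes C1qa, C1qb and C1qc, and at most 25% of its UMIs from mitochondrial genes. The 2642 barcodes with at least 2 UMIs of Pecam1, Cdh5 and Egfl7 that were not lymphatic, under the same limits on C1q and mitochondrial UMIs, served as other endothelial cells: 2150 in sham and 492 in MI. The 11 genes of the rule chose the cells, so their values are description. No lymphatic cell had exactly 4 UMIs of the lymphatic genes, and 1 barcode per library stood just outside with 3. A further 7 sham and 3 MI barcodes met every criterion except that all their lymphatic UMIs came from a single gene.

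Lymphatic endothelium arises in the embryo largely from veins, under the transcription factors PROX1 and COUP-TFII (Nr2f2). Its growth depends on VEGF-C acting through the receptor VEGFR-3 (Flt4). Initial lymphatic vessels carry the hyaluronan receptor LYVE1 and the glycoprotein podoplanin, and secrete CCL21, the ligand of CCR7 that draws dendritic cells and T cells into the vessel. In the injured heart, lymphatic vessels are known for clearing fluid and immune cells.

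The lymphatic cells held 131330 UMIs in sham (median 1350 per cell, 747 to 8504) and 85850 in MI (median 2476.5, 735 to 10879). Other endothelial cells had a median of 1503 UMIs in sham and 3569 in MI, so the MI cells were read more deeply in both types. A deeper cell reaches a UMI minimum more easily. Values are CPM, a gene's share of the summed UMIs of a group of cells scaled to 1000000. Of 5 barcodes that occurred in both libraries, 0 were lymphatic.

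Lyve1, a lymphatic gene that the rule did not use, was seen in most of the cells, and Pdpn (podoplanin) in fewer. Lyve1 had a UMI in 67 of 73 sham and 27 of 30 MI lymphatic cells, and Pdpn in 22 and 13. Lymphocytes, taken as cells that should lack these genes, had a Lyve1 UMI in 1 of 42 sham cells (median depth 1280.5 UMIs) and 1 of 147 MI cells (1364 UMIs). Markers of lymphocytes were near 0 in the lymphatic cells, with 2 UMIs in sham and 0 in MI over 9 genes. The 9 macrophage markers together had 62 UMIs in 35 of 73 sham lymphatic cells and 17 UMIs in 14 of 30 MI ones. At least 1 was seen in 67 of 147 MI lymphocytes. Cd68 and Emr1 were at 0 in the lymphatic cells of both libraries. Mrc1, which lymphatic endothelium also expresses, made up 45 of the 62 UMIs in sham but a minority in MI. Cardiomyocyte markers had 3 and 1 UMIs, mesothelial markers 1 and 3, and erythroid markers 35 and 1, in sham and MI.

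Fibroblast markers stood higher. At least 1 of 10 such genes had a UMI in 33 of 73 sham lymphatic cells (median cell 0 CPM, highest 28650 CPM for the 10 genes together) and in 25 of 30 MI ones (median 1020, highest 45133). Lymphocytes of the MI library had them in 141 of 147 cells, with a median of 3519 CPM, so fibroblast RNA stood also in cells that should lack it. Mural cell markers had 12 UMIs in sham and 60 in MI lymphatic cells. Levels in MI lymphocytes therefore stand beside the matrix genes below.

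Among kept barcodes, the lymphatic share was 1.16% in sham (95% exact binomial interval 0.909 to 1.45) and 0.355% in MI (0.240 to 0.507), 3.26-fold apart. Among endothelial cells alone the order was the other way: 3.28% in sham (73 of 2223, 2.58 to 4.11) and 5.75% in MI (30 of 522, 3.91 to 8.10), 1.75-fold higher (log2 ratio 0.81, 0.14 to 1.44). The intervals of the 2 libraries do not overlap for the first share and overlap narrowly for the second. The share of kept barcodes moves with all other cells recovered from each heart, and neither share was measured in a replicate.

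**Figure D1:**
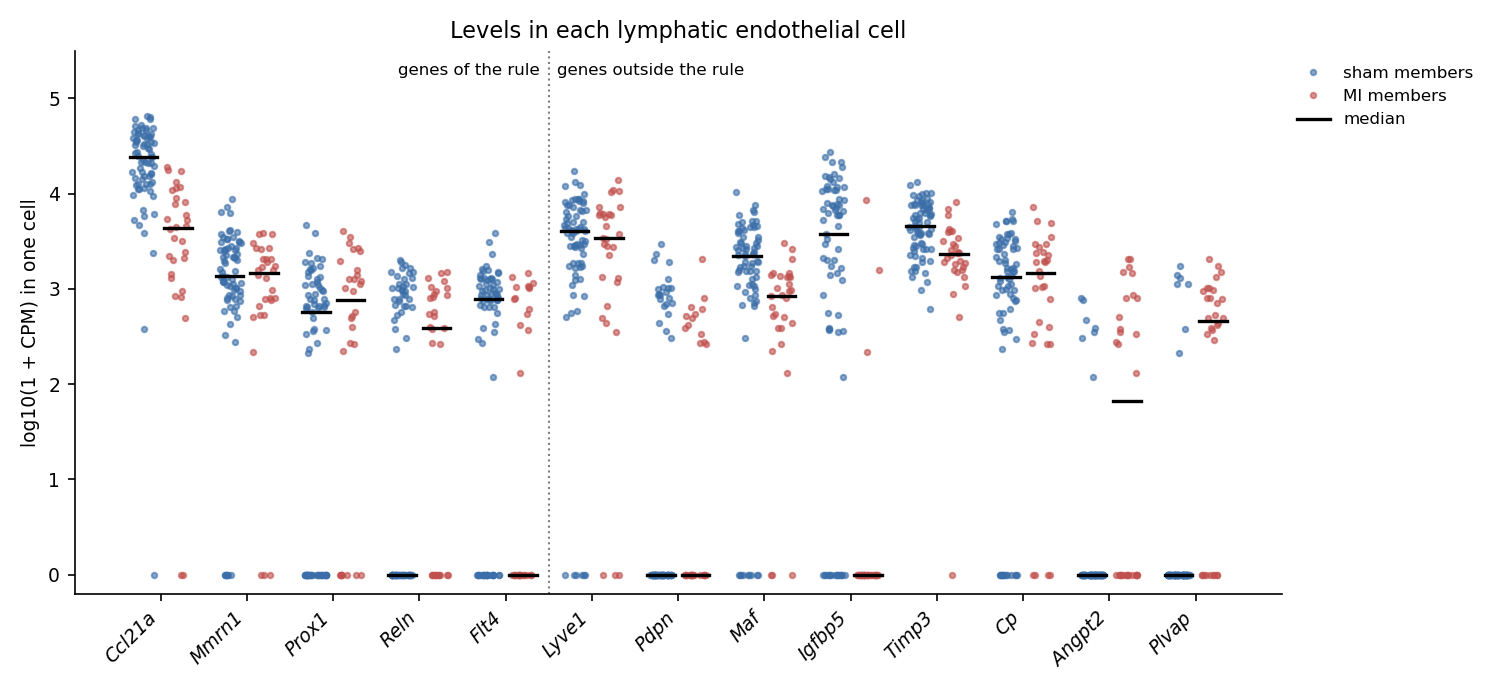
Each point is 1 lymphatic endothelial cell of the sham (73) or MI (30) library, with its level of a gene as log10(1 + CPM), bars at the median cell, and the genes that chose the cells to the left of the dotted line. Ccl21a, Igfbp5 and Maf have lower median cells in MI, Lyve1 covers much the same range in both libraries, and Plvap is at 0 in most sham cells.

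CCL21 transcripts were abundant in these cells, and mice carry several nearly identical copies of the gene on chromosome 4. These copies are shown because reads from one can be counted on another. Ccl21a (chromosome 4, 42772860 to 42773993, minus strand, mm10) and Ccl21b (42255767 to 42256432, plus strand) have coding sequences of 402 bases that differ at 2 positions, T84A and C194T, written as the Ccl21a base, the position counted from 1 at the first base of the start codon, and the Ccl21b base. Gm13304, Gm21541 and Gm10591 carry the same 2 coding differences from Ccl21a, which leaves 99.5% identity. After the stop codon, Gm13304 and Gm21541 differed from Ccl21a at 3 of 393 bases, and the models of Ccl21b and Gm10591 hold coding bases only. The 2 coding windows of 61 bases around these positions, from the GENCODE transcripts of the mm10 assembly and read 5′ to 3′, have the differing base in capitals, the first pair for coding bases 54 to 114 and the second for 164 to 224.
Ccl21a: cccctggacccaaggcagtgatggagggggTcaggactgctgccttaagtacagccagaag
Ccl21b: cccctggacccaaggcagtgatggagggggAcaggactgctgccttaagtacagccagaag
Ccl21a: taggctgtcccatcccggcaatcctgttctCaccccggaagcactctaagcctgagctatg
Ccl21b: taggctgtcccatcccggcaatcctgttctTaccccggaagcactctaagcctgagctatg

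In the sham lymphatic cells Ccl21a had 3371 UMIs, Gm13304 2550, Gm21541 2492, Gm10591 671 and Ccl21b 655. The same copies had 367, 270, 266, 47 and 61 UMIs in the MI cells, so the 5 copies were lower in MI together. With so few differing bases, the split of reads between copies is uncertain. How reads shared by copies were counted is not given, so the sum can count a molecule more than once. The 5 copies made up 7.42% of all UMIs of sham lymphatic cells (9739) and 1.18% of those of MI (1011). Of all Ccl21a UMIs among kept barcodes, 88.3% in sham and 81.6% in MI lay in the lymphatic cells. Outside them, 83 of 6230 sham barcodes (1.33%) and 19 of 8411 MI barcodes (0.226%) had a Ccl21a UMI.

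Per cell, Ccl21a ran from 0 through a median of 24026 to 64546 CPM in sham, and from 0 through 4339 to 19078 CPM in MI. Cells of the 2 libraries overlapped, but the highest MI cell lay below the sham median. Over summed UMIs, Ccl21a stood at 25668 CPM in sham and 4275 CPM in MI, a log2 difference of −2.59 (−2.75 to −2.43). Since Ccl21a helped to choose the cells, a choice by Mmrn1, Prox1 and Reln alone (at least 2 UMIs in place of the 4-gene criterion) was set beside it. It took 69 sham cells, of which 66 were also in the first choice, and 43 MI cells, of which 29 were. The median cell then had 24845 CPM of Ccl21a in sham and 1430 in MI. The 14 added MI cells were deep (median 7178.5 UMIs), 0 of them had a Ccl21a UMI and 2 had a Lyve1 UMI. The MI cells of this choice held 235114 UMIs, against 85850 in the first, and 1793 Col1a2 UMIs, against 332. Summed MI levels under this choice therefore rest mostly on the added cells. Among lymphatic cells with at least 2 UMIs of the other 3 genes (66 sham, 29 MI), Ccl21a was at 26327 and 4114 CPM, a log2 difference of −2.68 (−2.84 to −2.52).

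The other genes of the rule differed less. Mmrn1, which encodes an extracellular multimerin, was at 1706 CPM in sham (66 of 73 cells) and 1398 in MI (27 of 30 cells), with median cells at 1378 and 1483 CPM. Prox1 was at 609 and 920 CPM, with a UMI in 45 sham and 22 MI cells. Reln, which encodes the secreted glycoprotein reelin, was at 510 and 536 CPM, in 36 and 19 cells. Flt4 (VEGFR-3) was at 708 and 466 CPM, in 52 and 14 cells. All 4 lymphatic genes of the rule were seen in 21 sham and 10 MI cells.

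Against other endothelial cells of the same library, the lymphatic cells combined high hyaluronan receptor, podoplanin and MAF transcripts with low capillary transcripts. Genes were compared where the mean CPM of both groups was worth at least 10 UMIs in the smaller summed total, and a difference of at least 2-fold was counted. A gene can pass through the group where it is high and then has to differ, so counts over a gene list describe the genes measured and support no more. Among 2441 such genes in sham, 202 (8.28%) were at least 2-fold higher and 260 (10.7%) at least 2-fold lower in the lymphatic cells. In MI, with fewer cells, 1604 genes were compared, of which 159 (9.91%) were higher and 133 (8.29%) lower. With both libraries summed, 266 (6.86%) of 3880 were higher and 350 (9.02%) lower. The median gene differed by −0.03 in sham, 0.00 in MI and −0.01 with both libraries summed, on the log2 scale.

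Lyve1 (chromosome 7, 110850607 to 110863239, minus strand) ran from 0 through a median of 4005 to 17120 CPM per sham cell and from 0 through 3404 to 13965 CPM per MI cell. Its summed level was 4112 CPM in sham lymphatic cells and 59.0 in other endothelial cells, a log2 difference of 6.12 (5.91 to 6.34). In MI the levels were 4345 and 37.9 CPM, a log2 difference of 6.84 (6.51 to 7.18). A Lyve1 UMI was seen in 91.8% of sham and 90.0% of MI lymphatic cells, against 3.72% and 4.88% of other endothelial cells.

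Maf, which encodes a basic leucine zipper transcription factor, was at 2383 CPM in sham and 874 in MI lymphatic cells, and higher than in other endothelial cells by 6.46 (6.15 to 6.77) and 4.31 (3.87 to 4.75) on the log2 scale. Without the limit on C1q UMIs in the other endothelial cells, the differences were 4.39 and 3.54. Nr2f2 differed by 2.37 (2.07 to 2.65) in sham and 1.24 (0.66 to 1.77) in MI. Of 18 listed lymphatic transcription factors, 9 passed the filter in sham, 4 of them at least 2-fold higher (Prox1, a gene of the rule, with Nr2f2, Maf and Lmo2) and 2 lower (Gata2, Klf2). Over all genes in sham, 8.28% were higher and 10.7% lower. Klf2, a transcription factor known for its response to shear stress, was lower in sham (−1.03, −1.54 to −0.57) and higher in MI (1.06, 0.36 to 1.68). Its level in the lymphatic cells was 289 CPM in sham and 256 in MI, while in other endothelial cells it was 593 and 123 CPM. Tbx1, a T-box factor with a role in lymphatic growth, missed the filter in each library alone and passed it with both summed (9.59, 6.97 to 14.95). It had 9 UMIs in 9 sham and 15 UMIs in 10 MI lymphatic cells, and 0.223 CPM or less in other endothelial cells.

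Of 36 listed lymphatic surface and structural genes, 24 passed the filter in sham. Of these, 19 were higher by 2-fold or more and 0 lower (median log2 difference 3.22, beside −0.03 over all genes). Among all genes compared in sham, 8.28% were higher and 10.7% lower. In MI, 15 of 19 were higher and 0 lower, beside 9.91% and 8.29% of all genes. Besides Lyve1, the higher genes of the list included Pdpn (236 and 221 CPM in lymphatic cells of sham and MI, log2 differences of 4.32 and 3.89). Cp, which encodes the copper-carrying ferroxidase ceruloplasmin, was at 1576 and 1538 CPM, with differences of 4.06 and 3.16. Fgl2, a fibrinogen-like protein, differed by 6.32 and 3.88, and Thy1, a surface glycoprotein known also from T cells, by 5.35 and 4.08. Timp3, an inhibitor of metalloproteinases, had a UMI in 73 of 73 sham and 29 of 30 MI lymphatic cells, with differences of 1.81 and 1.56. Pdpn had a UMI in 22 sham and 13 MI cells, so it was not seen in most lymphatic cells at this depth.

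The genes named by the size of their smaller interval bound also included Pard6g, a polarity protein of the PAR6 family (5.83 in sham, 5.69 in MI), and Gpr97, an adhesion G protein-coupled receptor (6.28 and 4.18). Nts, the precursor of the peptide neurotensin, differed by 3.46 and 3.68, Ggct by 3.64 and 3.65, Abhd17b by 3.60 and 3.34, and the protease gene Prss23 by 3.08 and 2.85. Plac9b differed by 2.19 and 2.62, and the interferon-inducible Ifi27l2a by 2.20 and 3.90. Ifi27l2a was at 909 CPM in sham lymphocytes, above its 830 CPM in sham lymphatic cells. Ccl21b, with the uncertainty of copies given above, differed by 10.87 and 8.78.

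**Figure D2:**
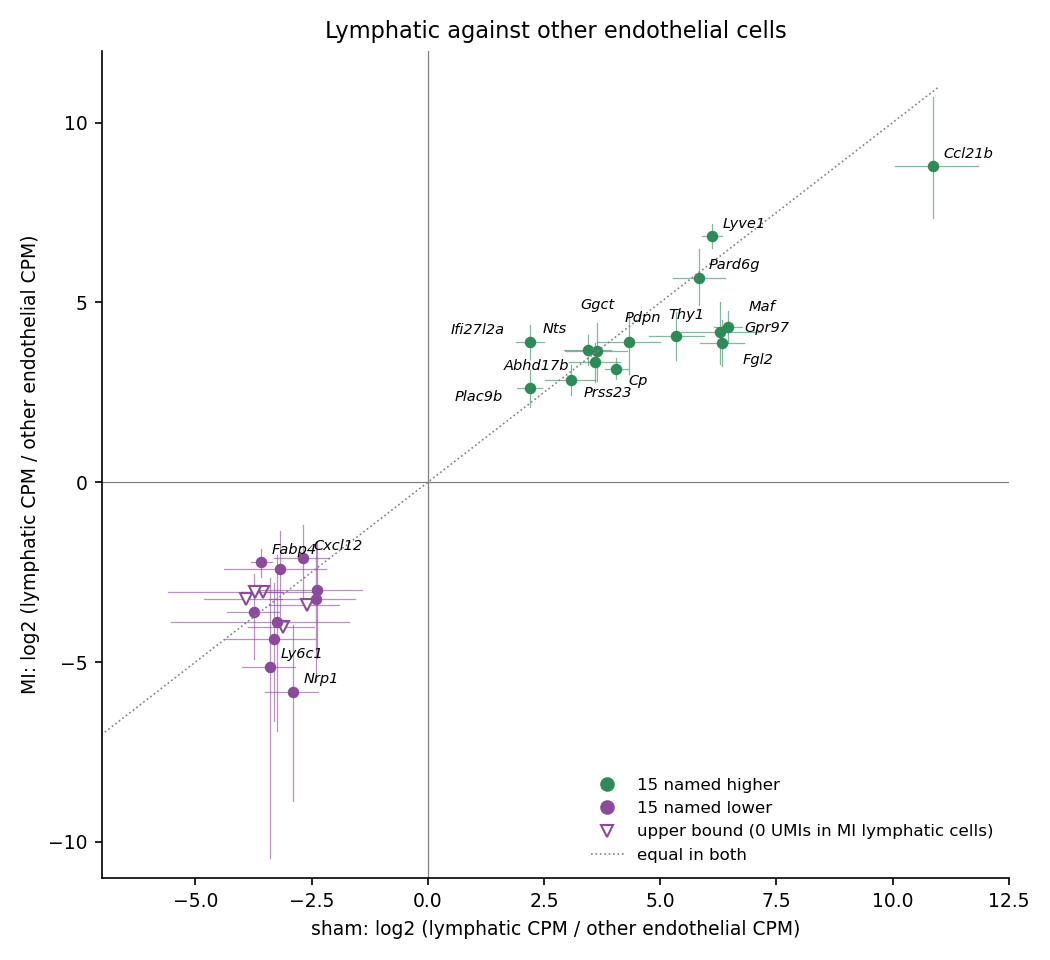
Each point is 1 of the 15 higher or 15 lower named genes, with its log2 difference between lymphatic and other endothelial cells in sham on the x axis and in MI on the y axis, lines for the 95% counting intervals, and open triangles for upper bounds where MI lymphatic cells had 0 UMIs. Lyve1, Maf, Fgl2 and Pard6g lie at the upper right, and Fabp4, Ly6c1 and Nrp1 at the lower left.

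The genes that capillary endothelium of the heart uses to take up fatty acids were low in the lymphatic cells. Fabp4, a fatty acid carrier, was at 1233 CPM in sham lymphatic and 14734 CPM in other endothelial cells (log2 difference −3.58, −3.81 to −3.36), and at 652 and 3055 CPM in MI (−2.23, −2.63 to −1.85). In sham, 74 of its 162 lymphatic UMIs (45.7%) lay in 1 cell, and the median lymphatic cell had 0. Cd36, a fatty acid translocase, was at 335 against 3902 CPM in sham (−3.54, −4.0 to −3.12). In MI it had 0 UMIs in the lymphatic cells against 290 CPM. With a floor of 3 counts over the group the log2 difference is at most −3.05, and its exact interval reaches −2.75. Of 24 listed heart capillary genes, 21 passed the filter in sham, 18 of them lower by 2-fold or more and 0 higher (median −2.51). Over all genes in sham, 10.7% were lower and 8.28% higher. In MI 9 passed, of which 4 were lower and 1, Mgll, was higher, beside 8.29% and 9.91% of all genes.

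Of the VEGF receptors, Flt1 (VEGFR-1) was at 137 CPM in sham lymphatic and 1190 CPM in other endothelial cells (−3.12, −3.87 to −2.46). In MI lymphatic cells it had 0 UMIs against 564 CPM (at most −4.01 with the floor of 3 counts, interval up to −3.71). Kdr (VEGFR-2), which both vessel types use, differed by −0.85 (−1.23 to −0.49) in sham and 0.77 (0.11 to 1.37) in MI. Kdr itself was lower in MI than in sham in lymphatic (−0.80, −1.54 to −0.10) and in other endothelial cells (−2.42). The co-receptors split: Nrp1 was lower by 2.90 in sham and 5.82 in MI on the log2 scale, while Nrp2, the co-receptor of VEGF-C signalling, was higher by 0.87 (0.55 to 1.16) and 1.63 (1.11 to 2.11). Nrp2 was also lower in MI than in sham in lymphatic (−0.69, −1.26 to −0.14) and in other endothelial cells (−1.45). Nrp1 had 27 UMIs in 10 sham and 2 UMIs in 2 MI lymphatic cells. Vegfc had 0 UMIs in sham and 1 in MI lymphatic cells.

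Other vascular genes were also low. Of 29 listed pan-endothelial genes, 26 passed the filter in sham, 14 at least 2-fold lower and 1 (Ecscr) higher, with a median of −1.02. The shares over all genes in sham were 10.7% lower and 8.28% higher. In MI 9 of 20 were lower and 0 higher, beside 8.29% and 9.91% of all genes. Ly6a (−3.90 in sham), Ly6c1 (−3.40), Sparcl1 (−3.74) and the junction protein gene Esam (−3.71) were among the lowest, and Ly6a, Esam and Palmd had 0 UMIs in the MI lymphatic cells. Fabp5, Adamts1, Ablim1, Cdkn1c and Cd93 were also among the 15 named lower genes, with log2 differences from −3.30 to −2.39 in sham.

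Among chemokine and leukocyte traffic genes, 11 of 40 passed the filter in sham, 6 higher and 3 lower, beside 8.28% and 10.7% of all genes. The higher ones include Ccl21a, a gene of the rule, and its copy Ccl21b, so the count supports nothing. Cxcl12, the ligand of CXCR4, was the opposite of CCL21: 190 CPM in sham lymphatic against 1223 in other endothelial cells (−2.68, −3.31 to −2.12, and −4.23 among lymphatic cells with fewer than 3 fibroblast-marker UMIs), and 105 against 455 in MI (−2.12, −3.25 to −1.19). Il7, the T cell survival cytokine interleukin 7, had 37 UMIs in 21 sham and 18 UMIs in 9 MI lymphatic cells. That is 282 and 210 CPM, against 1.78 and 2.02 CPM in other endothelial cells and 0 in lymphocytes of both libraries. The difference was 7.31 (6.18 to 8.62) in sham, and in MI the gene missed the filter. The chemokine scavenger Ackr2 had 12 UMIs in sham and 16 in MI lymphatic cells, and the guidance gene Sema3d 31 and 14.

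Genes of lymphatic valves and collecting vessels were mostly too low to compare. Of 19 listed, 5 passed in sham, with 1 higher and 1 lower, beside 8.28% and 10.7% of all genes. The claudin gene Cldn11 had 2 UMIs in sham and 1 in MI lymphatic cells. The cells were not divided into capillary and collecting vessel types.

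**Figure D3:**
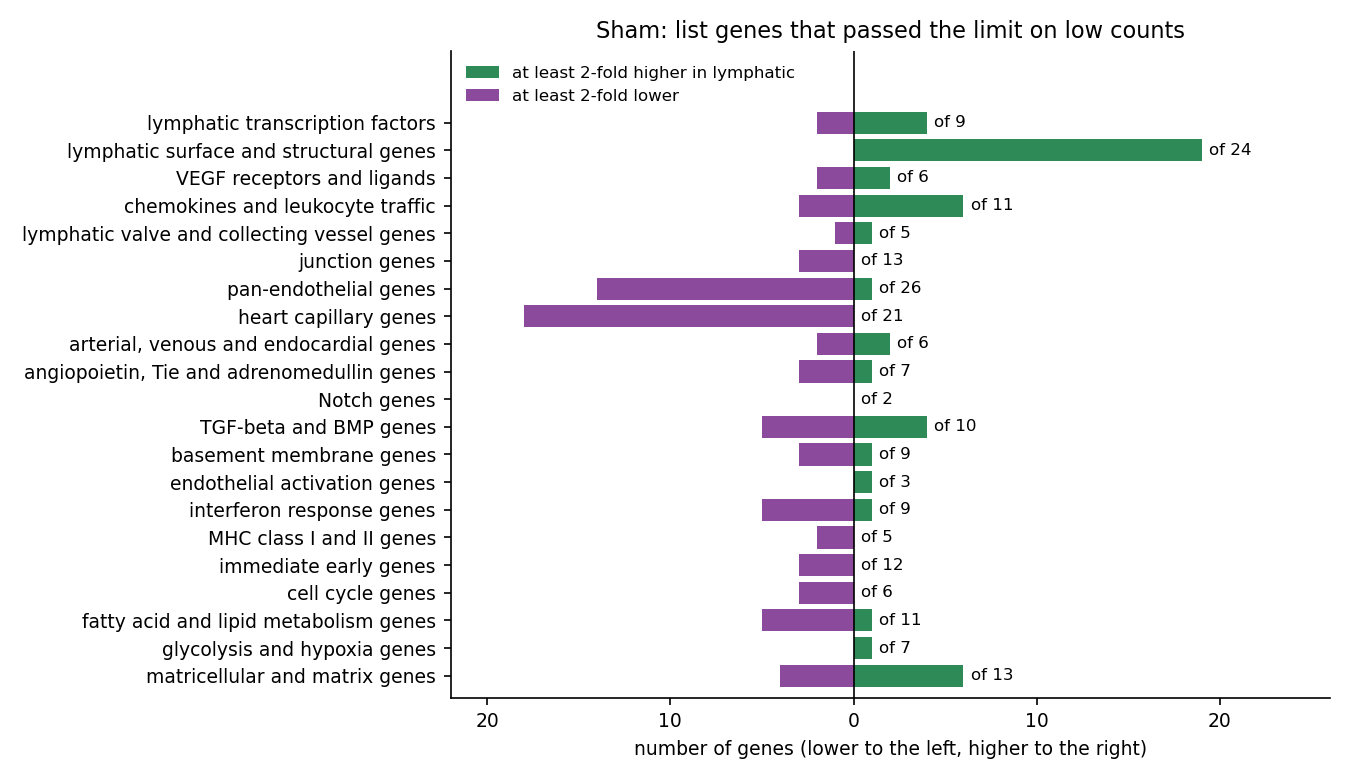
For each gene list, bars count the genes at least 2-fold higher (right) and lower (left) in sham lymphatic than in other endothelial cells, of the number printed that passed the filter. Surface and structural genes have 19 of 24 to the right, heart capillary genes 18 of 21 and pan-endothelial genes 14 of 26 to the left. Over all genes compared in sham, 8.28% were higher and 10.7% lower.

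Between the libraries, the lymphatic cells of MI had less Igfbp5, Maf and Sdpr and more Thbs1, Plvap and Angpt2 than those of sham, with Lyve1 alike in level. Of 1584 genes compared, 149 (9.41%) were at least 2-fold higher in MI and 149 (9.41%) lower, with a median of 0.05. Among 11346 genes of other endothelial cells, 1308 (11.5%) were higher and 1557 (13.7%) lower, with a median of −0.05. No difference between the 2 cell types was tested, so their values stand side by side as descriptions.

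Igfbp5, a binding protein of insulin-like growth factors (chromosome 1, 72857932 to 72874884, minus strand), ran from 0 through a median of 3768 to 27670 CPM in sham cells. In MI the median cell was at 0 and the highest at 8563 CPM. It had a UMI in 57 of 73 sham cells and 3 of 30 MI cells, and 32 of the 39 MI UMIs lay in 1 cell. After thinning every cell to 500 UMIs, 46 sham cells (63.0%) and 1 MI cell (3.33%) had a UMI. The summed levels were 5117 and 454 CPM, a log2 difference of −3.49 (−4.0 to −3.03), and −4.35 with cells chosen without Ccl21a. Among cells with at least 2 UMIs of Mmrn1, Prox1 and Reln it was −3.39 (−3.90 to −2.92). Other endothelial cells had 368 and 337 CPM, a difference of −0.12 (−0.25 to −0.00), and lymphocytes 0 and 16.9 CPM.

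Maf ran from 0 through a median of 2191 to 10338 CPM in sham and from 0 through 849 to 3021 CPM in MI, so the ranges overlapped. The summed difference was −1.45 (−1.83 to −1.08), and 0.69 (0.31 to 1.08) in other endothelial cells. With cells chosen without Ccl21a, which adds the 14 deep MI cells, the Maf difference was −2.53. Among lymphatic cells with at least 2 UMIs of Mmrn1, Prox1 and Reln it was −1.48 (−1.87 to −1.11). Fgl2 differed by −1.30 (−1.90 to −0.73), and by 1.15 (0.60 to 1.70) in other endothelial cells. Nr2f2 was at 876 and 361 CPM (−1.28, −1.90 to −0.69, and −0.15 in other endothelial cells). Mrc1, the mannose receptor, had 45 UMIs in 27 sham and 4 UMIs in 4 MI cells (−2.88, −4.82 to −1.42, and −0.57 in other endothelial cells). Ackr3, a scavenger of CXCL12 and adrenomedullin, had 29 and 3 UMIs (−2.66, −5.02 to −0.97, and 0.14 in other endothelial cells).

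Some genes were lower in MI in both endothelial types. Sdpr, which encodes a protein of caveolae, was at 6053 and 1281 CPM in the lymphatic cells (−2.24, −2.54 to −1.95) and differed by −1.93 in other endothelial cells. The tight junction gene Cldn5 differed by −2.34 (−3.62 to −1.27) and −3.22. Cyp4b1 (−4.64), Tppp3 (−4.85), Pcp4l1 (−3.06), Ushbp1 (−3.33), Prelp (−2.85) and Abi3bp (−3.22) were lower in the lymphatic cells, with differences from −5.93 to −1.93 in other endothelial cells. Rbp7 and Cd36 had 0 UMIs in MI lymphatic cells. With the floor of 3 counts their differences were at most −2.80 and −3.26 (intervals up to −2.42 and −2.90), beside −2.64 and −3.75 in other endothelial cells. Of the 44 sham UMIs of Cd36, in 14 lymphatic cells, 15 (34.1%) lay in 1 cell. Its bound was −2.70 with 3 of the 4 lymphatic genes asked for. Among cells with fewer than 3 fibroblast-marker UMIs it was −1.51. Gsn, a gene of actin severing that fibroblasts express highly, differed by −3.29 (−4.62 in other endothelial cells), but only 16 of its 120 sham UMIs remained when 2 sham cells called doublets were left out, and the difference was then −0.53.

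Of 25 lymphatic surface and structural genes that passed, 2 were at least 2-fold higher in MI (Nts, Marcksl1) and 8 lower (Mrc1, Cldn5, Sdpr, Tspan18, Maf, Fgl2, Sned1 and Abi3bp), beside 9.41% of all genes in each direction. The other 15 differed by less than 2-fold. Lyve1 differed by 0.08 (−0.11 to 0.27, and −0.64 in other endothelial cells), although 113 of its 373 MI UMIs (30.3%) lay in the deepest cell, and the difference without that cell was −0.25. Cp differed by −0.04 (−0.36 to 0.29, and 0.86 in other endothelial cells) and Pdpn by −0.09 (−1.0 to 0.78, and 0.34). Outside that list, Pard6g differed by −0.22 (−0.81 to 0.35, and −0.08) and Il7 by −0.43 (−1.33 to 0.42). With cells chosen without Ccl21a, which adds the 14 deep MI cells, Lyve1 differed by −1.14 and Cp by −0.96. Among lymphatic cells with at least 2 UMIs of Mmrn1, Prox1 and Reln, Lyve1 differed by 0.03 (−0.17 to 0.23).

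Of 17 listed genes linked to activated endothelium, 6 passed the filter (Fn1, Thbs1, Angpt2, Plvap, Cyr61 and Lrg1) and were at least 2-fold higher in the MI cells. The other 11 did not pass. Fn1, Thbs1, Angpt2 and Plvap passed through their MI level, which fixes their direction, so the count supports nothing. In other endothelial cells 12 of 17 were higher, with a median of 3.08, beside 11.5% of all genes higher. Plvap, which encodes a diaphragm protein of fenestrae and caveolae, had a UMI in 7 of 73 sham and 21 of 30 MI cells, with median cells at 0 and 461 CPM. Its summed levels were 76.1 and 478 CPM, a difference of 2.65 (1.63 to 3.81), and 4.12 in other endothelial cells. After thinning to 500 UMIs it was seen in 5 sham and 8 MI cells. In MI lymphocytes 3 of 147 cells had a Plvap UMI.

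Angpt2, the TIE2 ligand angiopoietin 2, was at 60.9 and 419 CPM, with a UMI in 7 sham and 15 MI cells (2.78, 1.65 to 4.10). The difference was 0.76 in other endothelial cells, the gene was at 0 in lymphocytes of both libraries, and with cells chosen without Ccl21a it was 1.45. Thbs1, the matricellular protein thrombospondin 1, had a UMI in 4 sham and 20 MI cells, with median cells at 0 and 553 CPM. It was at 99.0 and 990 CPM (3.32, 2.47 to 4.29), beside 196 CPM in MI lymphocytes and a difference of 5.39 in other endothelial cells. Of the 13 sham UMIs of Thbs1, 10 lay in 1 cell. Thbs1 differed by 2.38 with cells chosen without Ccl21a. Lrg1 (1.54, and 5.38 in other endothelial cells) and Cyr61 (1.76, and 0.80), with Nts (1.31) and Prss23 (1.26), dropped under 2-fold when cells were chosen without Ccl21a, to 0.36, 0.81, 0.29 and 0.11. Most MI UMIs of that choice lie in its 14 added deep cells. Myct1, an endothelial membrane protein gene, was higher in the lymphatic cells (2.03, 1.14 to 2.99) and lower in other endothelial cells (−1.05, −1.18 to −0.92). With 15 UMIs in sham lymphatic cells, it passed the filter only through its MI level, which fixes its direction there.

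**Figure D4:**
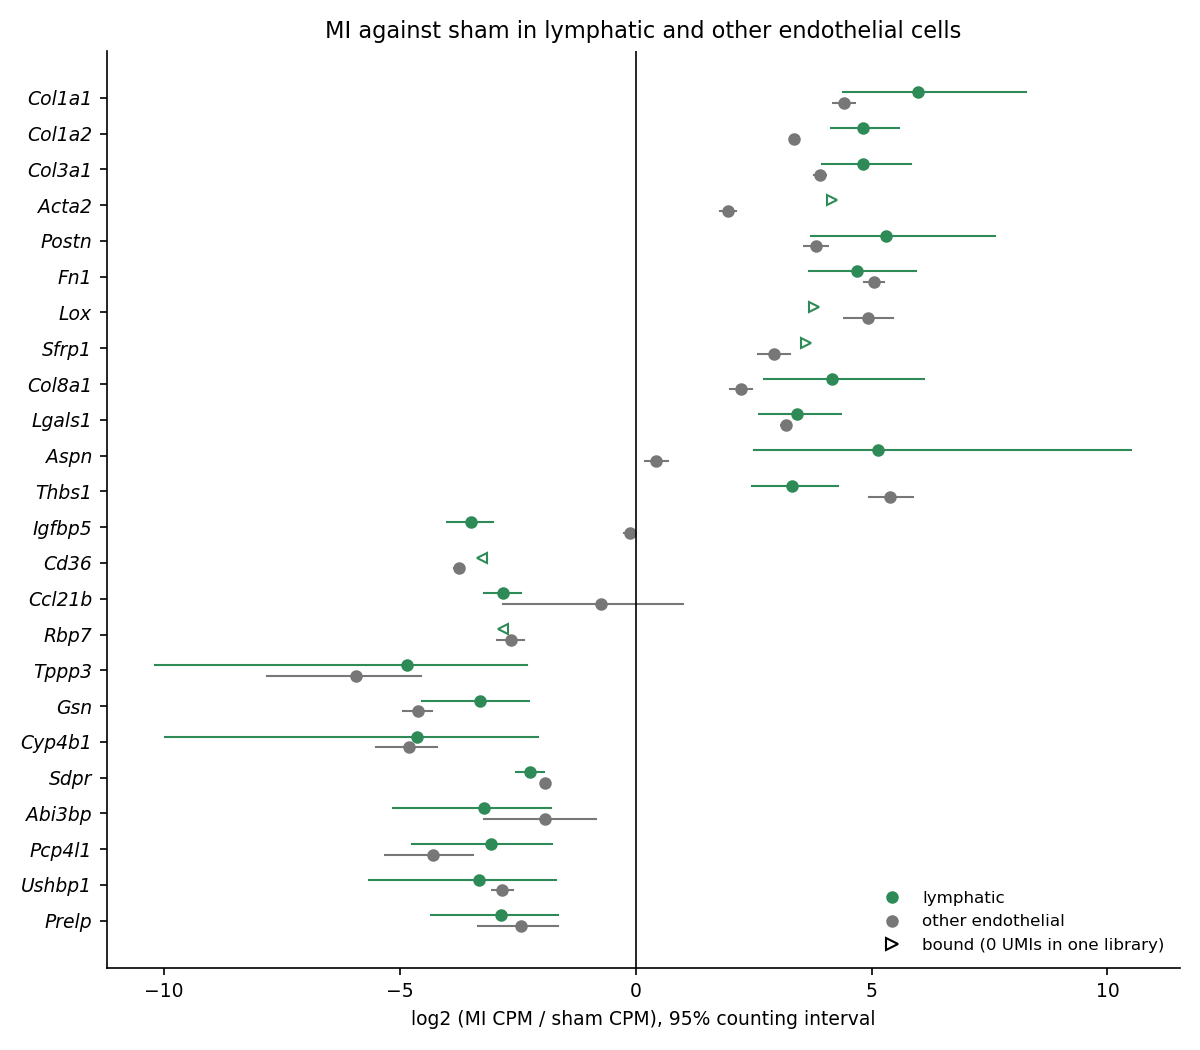
For the 12 higher and 12 lower named genes, points give the log2 ratio of MI over sham in lymphatic (green) and other endothelial cells (grey), with 95% counting intervals, and triangles bounds where 1 library had 0 UMIs. Sdpr and Cyp4b1 are low in both, Fn1 and Thbs1 high in both, and Igfbp5 is at −3.49 in lymphatic and −0.12 in other endothelial cells.

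Collagen and other matrix genes had the largest higher values in MI, and they rested on few cells. Col1a2 was at 137 CPM in sham and 3867 in MI lymphatic cells (4.82, 4.14 to 5.59, and 3.36 in other endothelial cells). Of its 18 sham UMIs, 4 remained when the sham cells called doublets were left out, and the difference was then 6.85. Of its 332 MI UMIs, 313 (94.3%) lay in 4 of 30 cells, those with over 20 Col1a2 UMIs. Without these 4 cells it was at 279 CPM, beside 8005 CPM in MI lymphocytes, whose median cell had 1592 CPM. The difference was then 1.02 (0.02 to 2.04) against all sham lymphatic cells, those called doublets included. The same 4 cells, chosen after their values were seen, held 184 of 203 UMIs of Col3a1, 114 of 124 of Col1a1, 74 of 78 of Postn and 47 of 47 of Col8a1. Lox, Sfrp1 and Aspn each had 1 UMI outside them. Acta2, a contractile protein of mural cells and myofibroblasts, had 30 of 35 UMIs there.

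Fn1 (fibronectin) and Lgals1 (galectin 1) were spread more widely. Fn1 had a UMI in 6 of 73 sham and 22 of 30 MI cells, at 60.9 and 1584 CPM (4.70, 3.68 to 5.94, and 5.05 in other endothelial cells). Without the 4 cells it was still at 1130 CPM (4.21, 3.16 to 5.48), beside 840 CPM in MI lymphocytes, whose median cell had 0. Lgals1 differed by 3.42 (3.18 in other endothelial cells), and by 2.23 (1.29 to 3.24) without the 4 cells, when it stood at 499 CPM beside 2259 CPM in MI lymphocytes. Igfbp7 was at 343 and 1829 CPM (2.42, 1.93 to 2.93), in 18 sham and 25 MI cells, beside 471 CPM in MI lymphocytes and a difference of 0.46 in other endothelial cells. With cells chosen without Ccl21a the Igfbp7 difference was 1.47. The part of free RNA or of cells captured together in these values was not tested.

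**Figure D5:**
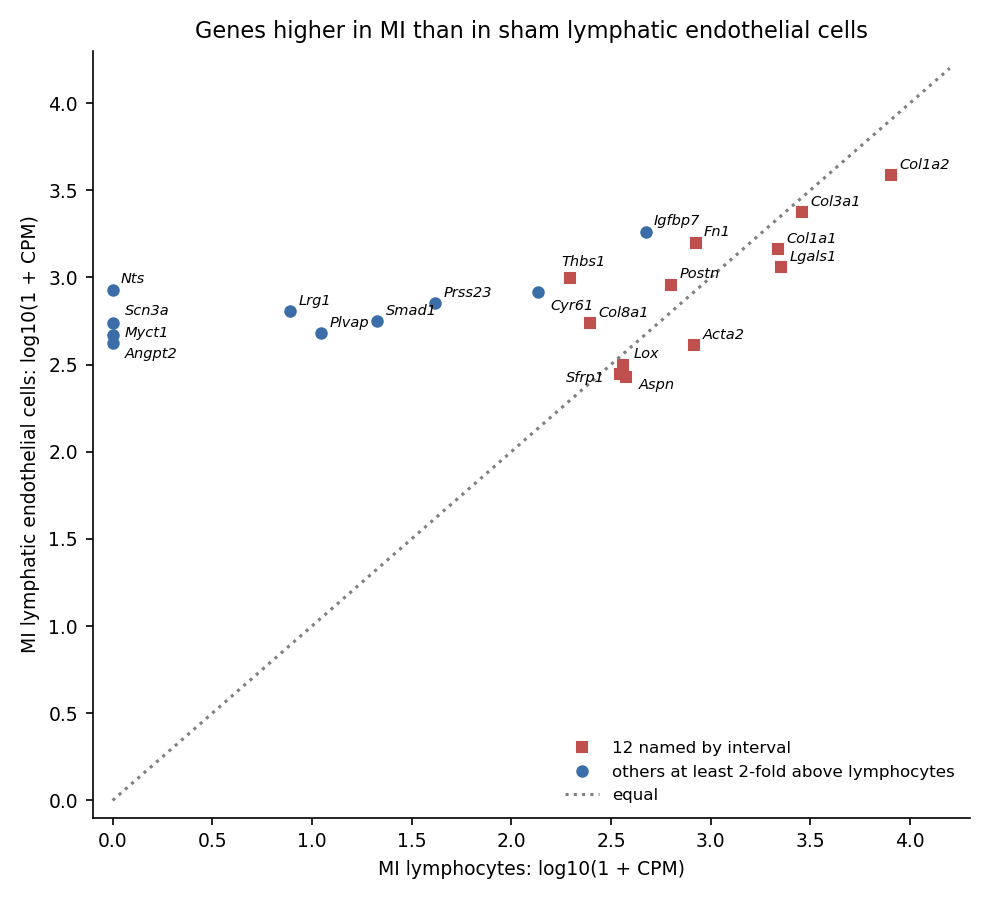
Each point is a gene higher in MI than in sham lymphatic cells, with log10(1 + CPM) in MI lymphocytes on the x axis and in MI lymphatic cells on the y axis, and a dotted line where both are equal. Squares are the 12 named genes and circles others at least 2-fold above lymphocytes: Col1a2 lies below the line (3867 against 8005 CPM), and Angpt2 is at 0 in lymphocytes and 419 CPM in lymphatic cells.

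Other lists could be followed less far in the lymphatic cells. All but 1 of 17 interferon response genes were at least 2-fold lower in MI among other endothelial cells, beside 13.7% of all genes. Only 2 passed the filter in the lymphatic cells, with 0 past 2-fold. Of 16 cell cycle genes 2 passed, with 0 past 2-fold. All 23 heart capillary genes that passed in other endothelial cells were at least 2-fold lower in MI (median −3.09). In the lymphatic cells 6 of 10 were lower (median −1.27), beside 9.41% of all genes.

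The sham lymphatic cells also varied among themselves. For 768 genes with at least 30 UMIs, the variance of counts between cells over that of Poisson counting at each cell's depth had a median of 1.29. Ccl21a had the highest ratio, 18.7, with a UMI in 72 of 73 cells. Gsn ranked 3rd at 16.7, with 49.2% of its UMIs in 1 cell. Igfbp5 stood at 15.1, Lyve1 at 4.58, Maf at 2.61 and Mmrn1 at 2.53, while Reln was at 1.20, near the median. This ratio can rise with a gene's level, so it does not rank genes of unlike level (3371 UMIs of Ccl21a, 67 of Reln). In MI the median over 472 genes was 1.37. Mgp, with 76.6% of its UMIs in 1 cell, was at 41.2 and Col1a2 at 40.7, above Ccl21a at 15.3. Lyve1 was at 9.79 and Maf at 1.27.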

How the data were processed

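Drop-seq libraries were made from 1 MI heart and from 4 pooled sham hearts. The labels' protocols mention paraformaldehyde fixation and embedding. The authors deposited 1 table of unnormalized UMI counts for each library, with genes in rows and barcodes in columns. The submitters' processing notes name mm10 and Seurat. For the cell suspension, the aligner and the annotation, nothing is given in the sources used here. The 21745 genes of both tables entered the comparisons, and barcodes with over 25% mitochondrial UMIs were removed, leaving 8441 of 8555 in MI and 6303 of 6337 in sham.

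UMIs were summed per group of cells and divided by the group's total. A difference is a log2 ratio of CPM with an exact conditional 95% interval, CPM has exact Poisson and shares exact binomial intervals, and a count of 0 is set to 3 counts for a bound. Lymphocytes had at least 2 UMIs of Cd3d, Cd3e, Cd3g, Cd79a, Cd79b and Ms4a1 and no endothelial UMI. The cells and gene lists were chosen with earlier results of these data known. Named genes were outside the rule and ranked by the interval bound nearest 0, the weaker library counting: up to 15 higher and 15 lower against other endothelial cells, 12 and 12 between libraries, and members of the lists. Other choices of cells, scalings and filters were computed as alternatives. Scrublet, run in scanpy 1.11.5, marked doublets (147 MI and 334 sham barcodes, of which 0 and 2 were lymphatic) and left out only as an alternative. The tools were Python 3.11.15 with numpy 2.4.6 and scipy 1.17.1, and the steps were tested on simulated data.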

Additional observations from a re-analysis of the deposited data

Results flagged for a closer look

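Among genes of the lists, 4 were flagged for differences between MI and sham of opposite sign in lymphatic and other endothelial cells. These differences were past 2-fold in both, with both counting intervals on their own side of 0. The difference between the cell types was not tested, since each condition is 1 library. Emcn, which encodes the vascular sialomucin endomucin, differed by −1.06 (−2.18 to −0.05) in lymphatic cells, with 35 UMIs in sham and 11 in MI, and by 1.92 (1.84 to 2.01) in other endothelial cells. Fgl2 differed by −1.30 (−1.90 to −0.73) and 1.15 (0.60 to 1.70). Tspan18, a tetraspanin gene, differed by −1.19 (−2.26 to −0.24), with 42 and 12 UMIs, and by 1.12 (0.93 to 1.30). Myct1 went the other way, with 2.03 (1.14 to 2.99) in lymphatic and −1.05 (−1.18 to −0.92) in other endothelial cells. At 114 CPM in sham and 466 in MI lymphatic cells, it passed the filter only through its MI level. That fixes its direction in the lymphatic cells, so its flag supports nothing.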

How the results depend on the processing

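No paired analysis was possible because each condition is 1 library with no replicate to pair. The number of cells, 30 and 73, and their depth leave most genes under the filter, and a count of 0 in the MI lymphatic cells allows up to 34.9 CPM. Among the shares and gene counts under alternatives, 98 values stayed within their interval or within 1.5 times and 22 moved. The counts followed the filter. With genes worth 20 UMIs, 55 were higher and 61 lower in MI against sham (395 and 379 with 5 UMIs, 149 and 149 as reported). Against other endothelial cells they were 66 and 50 in MI (375 and 297 with 5 UMIs) and 91 and 118 in sham (471 and 520 with 5 UMIs). With the 14 MI and 66 sham cells that had fewer than 3 fibroblast-marker UMIs, 44 were higher and 36 lower between libraries, and 50 and 43 against other endothelial cells in MI. Choosing cells without Ccl21a, an alternative added after seeing the data, gave 331 higher and 349 lower between libraries, and MI shares of 8.21% of endothelial cells and 0.509% of kept barcodes. Asking for 3 of the 4 lymphatic genes gave sham shares of 2.36% and 0.825%. For single genes and shares of cells with a UMI, 816 values stayed within the same limits, 105 moved and 1 reversed, 28 of those that moved with cells chosen without Ccl21a and 24 with the cells of few fibroblast-marker UMIs. The value counted as reversed was Gsn between libraries, from −3.29 to at most 0.073 among the cells with few fibroblast-marker UMIs. There it had 0 MI and 11 sham UMIs, so the positive sign comes from the floor of 3 counts and no reversal was seen. What moved the other values was not tested. A scaling by the median of ratios moved the median gene by less than 0.1 on the log2 scale.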
